A study of Mus musculus with 2 samples.

Results

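The Ly49 receptors and the transcription factor Helios were followed in CD8 T cells of the mouse mammary gland through 7 genes: Klra1, Klra3, Klra4, Klra6, Klra7 and Klra8, which encode Ly49 receptors, and Ikzf2, which encodes Helios. Each was taken by its gene symbol from the 32285 genes of the single-cell count tables, whatever its level, and all 7 had a row in both. The study sorted live CD8 T cells (CD45+, TCRB+, CD8a+) from the 4th mammary fat pad of untreated C57BL/6 mice, and compared multiparous mice (parous) with virgin mice. The ages of the mice are not given in the sources used here. Each group was a single library of the 10x 5′ chemistry, pooling 5 or more mice. There is therefore no replicate check on any difference between parous and virgin cells, and nothing was tested. Intervals are 95% and exact, from the Poisson distribution for levels and by Clopper-Pearson for shares, and they cover counting error alone. They treat every UMI (a unique molecular identifier, counting 1 captured RNA molecule) and every cell as independent, and UMIs of 1 gene came in clumps from few cells, so they are too narrow.

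Ly49 receptors are C-type lectin-like proteins, best known from natural killer (NK) cells, that bind classical MHC class I molecules on other cells. Those encoded by Klra1 (Ly49A), Klra3 (Ly49C), Klra6 (Ly49F) and Klra7 (Ly49G) carry an inhibitory tail that recruits phosphatases such as SHP-1 (Ptpn6). Those encoded by Klra4 (Ly49D) and Klra8 (Ly49H) activate the cell through the adaptor DAP12 (Tyrobp). Each NK cell expresses its own subset of the genes. Helios belongs to the Ikaros family of zinc finger factors and is known from regulatory T cells, from CD8 T cells described as regulatory that carry Ly49 receptors, and from unconventional T cells selected by strong self-recognition.

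The 6 Ly49 members lie within 374 kb of chromosome 6 (GRCm38, chr6:130013033-130386874, all on the minus strand) in the order Klra6, Klra4, Klra8, Klra7, Klra3, Klra1, with Klra9 and Klra10 between them. Ikzf2 lies on chromosome 1 (chr1:69531214-69687245, minus strand). The 6 promoters matched in RefSeq (GRCm38.p6) are shown because 5 of these 6 copies share a stretch of sequence. The 130 bases upstream of each start are given 5′ to 3′ on the minus strand in lower case. Capitals mark the 11 bases TTTCCTCTTTT, the longest run shared within 250 bases of the start by the 5 members other than Klra1. Klra1 was left out of that search, and the longest run shared by all 6 was 6 bases.
Klra3: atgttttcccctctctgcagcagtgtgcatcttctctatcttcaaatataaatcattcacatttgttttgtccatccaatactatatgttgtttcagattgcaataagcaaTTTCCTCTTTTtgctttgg
Klra4: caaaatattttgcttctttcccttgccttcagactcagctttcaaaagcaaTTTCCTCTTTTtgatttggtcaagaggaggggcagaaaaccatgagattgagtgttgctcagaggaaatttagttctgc
Klra6: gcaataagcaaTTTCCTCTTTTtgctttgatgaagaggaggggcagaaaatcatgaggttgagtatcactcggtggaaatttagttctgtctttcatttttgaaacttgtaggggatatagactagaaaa
Klra7: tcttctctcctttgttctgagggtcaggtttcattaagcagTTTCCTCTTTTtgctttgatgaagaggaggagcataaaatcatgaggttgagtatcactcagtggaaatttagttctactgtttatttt
Klra8: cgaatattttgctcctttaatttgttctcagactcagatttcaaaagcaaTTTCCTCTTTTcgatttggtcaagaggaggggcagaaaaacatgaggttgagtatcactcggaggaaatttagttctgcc
Klra1: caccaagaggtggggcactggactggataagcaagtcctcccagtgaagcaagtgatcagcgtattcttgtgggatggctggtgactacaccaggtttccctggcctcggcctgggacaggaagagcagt
The windows were chr6:130337627-130337756 for Klra3, chr6:130067272-130067401 for Klra4, chr6:130026955-130027084 for Klra6, chr6:130233323-130233452 for Klra7, chr6:130129899-130130028 for Klra8 and chr6:130386875-130387004 for Klra1. Within 250 bases of the start the run was present once in each of 5 members and was not found in Klra1, on either strand. Its first base lay 19 bases before the start of Klra3, 79 before Klra4, 80 before Klra8, 89 before Klra7 and 119 before Klra6. Of 32851 windows of the same length in the table, 42 (0.128%) held it on either strand. The run was picked by looking for what the 5 windows other than that of Klra1 share, and the genes are copies of one another. A match is therefore a description of the letters and not of a binding site. Klra1 lacked the run and was often found with Klra7, while Klra4 and Klra8 held it and were rare. Whether the run bears on which genes are found in the same cells was not tested.

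The copies also bear on the counts. The coding sequences of the 15 pairs of members were 76.8% to 91.0% identical, with a median of 82.4%. Klra3 was 95.9% identical to Klra9 and 96.2% identical to Klra10, 2 Ly49 genes outside the members. UMIs of these 3 may therefore be split between them, and Klra3 values in particular are uncertain. Of the 5 other Ly49 rows, Klra9 had 232 parous and 178 virgin UMIs, Klra5 had 108 and 9, Klra10 had 6 and 16, and Klra2 and Klra17 had none.

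The parous library held 4927 barcodes and 14676415 UMIs, the virgin library 2526 barcodes and 20166425 UMIs. After the cell filter and the removal of 1 cluster of other cells, 2991 parous and 2502 virgin CD8 T cells remained, with medians of 4108 and 7002 UMIs per cell. Because of this depth gap, the share of cells in which a gene was found was compared once every cell had been thinned at random to 1400 UMIs, which left out 125 parous and 14 virgin cells with fewer. The share from all UMIs is given too, and it favours the deeper virgin cells. The libraries shared 14 barcodes among kept cells, and leaving those cells out kept the log2 ratio of parous to virgin at 1.46 for Ikzf2 and kept that of each Ly49 gene within its interval.

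The inhibitory receptor genes Klra1, Klra6 and Klra7 and the factor gene Ikzf2 were higher in parous than in virgin cells, while Klra3 and Klra8 were higher in virgin cells. Klra7 had 1583 parous and 509 virgin UMIs, or 119 (113 to 125) against 25.5 (23.4 to 27.8) CPM (a gene's UMIs scaled to 1000000 UMIs of the summed CD8 T cells), a 4.67-fold difference. Klra1 had 683 and 244 UMIs, or 51.4 (47.6 to 55.4) against 12.2 (10.7 to 13.9) CPM, 4.20-fold. Klra6 had 302 and 117 UMIs, or 22.7 (20.2 to 25.5) against 5.87 (4.85 to 7.03) CPM, 3.87-fold. These 3 moved alike, with the parous library at the higher level by about the same factor. Ikzf2 had 1393 and 761 UMIs, or 105 (99.5 to 111) against 38.2 (35.5 to 41.0) CPM, 2.75-fold higher in parous cells. Of the 13917 genes with at least 10 UMIs in the libraries together, 8.61% lay 1.5-fold or more above and 17.4% as far below their virgin level in parous cells. Of the 7 members 4 lay above and 3 below, and all but Klra4 had an interval that leaves out equality.

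Klra3 went the other way, with 158 parous and 524 virgin UMIs, or 11.9 (10.1 to 13.9) against 26.3 (24.1 to 28.6) CPM, 2.20-fold higher in virgin cells. The activating receptor genes were rare. Klra8 had 11 and 51 UMIs, or 0.828 (0.414 to 1.48) against 2.56 (1.90 to 3.36) CPM, 2.98-fold higher in virgin cells, and 5 cells held 52.9% of the virgin UMIs. Klra4 had 4 and 10 UMIs, or 0.301 (0.0821 to 0.771) against 0.501 (0.240 to 0.922) CPM, intervals that overlap. Summed over the 6 Ly49 genes the parous level was 206 CPM and the virgin level 73.0 CPM, a 2.83-fold difference, and the log2 ratio of Ikzf2 was 1.46 (1.33 to 1.59).

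**Figure D1:**
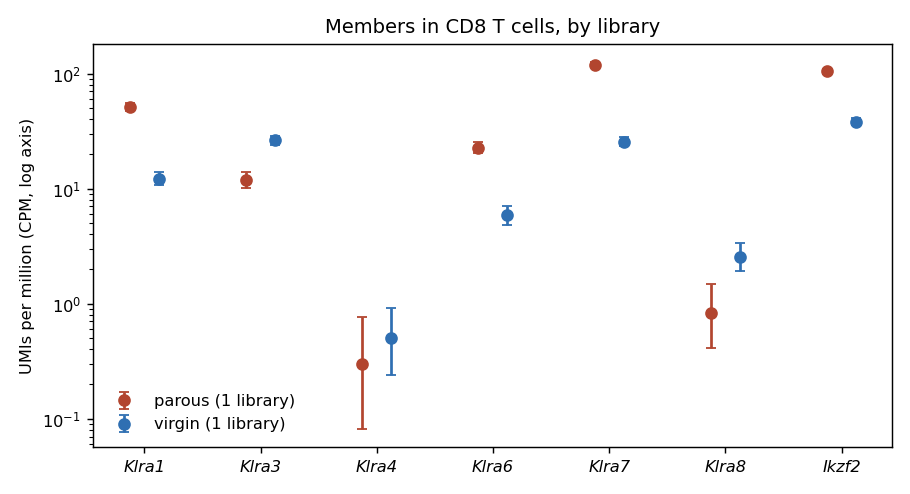
Level of each gene in the summed CD8 T cells of the parous and the virgin library, in CPM on a log axis, with exact 95% Poisson intervals as bars. Klra1, Klra6, Klra7 and Ikzf2 lie higher in the parous library, and Klra3 and Klra8 lie higher in the virgin library.

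Much of the parous excess sat in clusters that the virgin library hardly held. Without clusters 4, 6 and 11, in each of which over 90% of cells were parous, the 2.83-fold difference in the Ly49 sum shrank to a log2 ratio of 0.57, under the 1.5-fold mark, and the log2 ratio of Ikzf2 fell from 1.46 to 0.82. The ratio of Klra1 fell from 2.07 to 0.88, and that of Klra7 from 2.22 to 1.26. For Klra3 it went from -1.14 to -1.57. More such cells and more RNA per cell cannot be told apart in the summed values, and with 1 library per group a cluster of mostly 1 library may be that library and not a state.

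At 1400 UMIs per cell, 12.8% (368 of 2866) of parous and 4.42% (110 of 2488) of virgin cells had a UMI of at least 1 of the 6 Ly49 genes, and are called Ly49+ below. Over 20 other random draws the shares ran from 12.2% to 13.2% and from 4.18% to 5.14%. Ikzf2 had a UMI in 10.3% (295) and 3.62% (90), with draws from 9.53% to 10.6% and from 3.18% to 4.02%. Klra7 was present in 8.41% and 1.53%, and its virgin share lay under the range of the other draws, 1.65% to 2.17%. With all UMIs, 18.2% (545 of 2991) of parous and 9.23% (231 of 2502) of virgin cells were Ly49+, and 18.4% and 10.1% had Ikzf2. By every one of these counts the parous share was the higher.

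The cells fell into 13 clusters, built without any Ly49 gene or Ikzf2, of which 12 were kept as CD8 T cells. A cluster was named from fixed markers, and left unnamed where they were too few or mixed. Cluster 3 (354 parous and 200 virgin cells) stayed unnamed and was led by Itm2a, Rbpms and Pde2a with the NK receptor genes Klrc2 and Klrb1c. Cluster 6 (271 and 2 cells) stayed unnamed too, and was led by the signalling adaptors Tyrobp and Fcer1g and the granzyme gene Gzmc, with 9 tissue-residency markers raised but none of them among its 10 leading genes. Cluster 11 (65 and 4 cells) was tissue-resident memory-like and led by Ccr10 and Capg. These 3 held 469 of the 545 parous Ly49+ cells (86.1%) and 92.3% of the parous Ly49 UMIs.

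Among parous clusters the summed Ly49 level was highest in cluster 6 at 1257 (1193 to 1322) CPM, then in cluster 11 at 823 (708 to 952) and cluster 3 at 391 (366 to 418), with intervals that do not overlap. Cluster 9, which had little RNA (median of 1278.5 UMIs per parous cell), came next at 178 (128 to 240) CPM. The interferon-responding-like cluster 10 (100.3), the cycling-like cluster 8 (84.6), the circulating effector-like cluster 5 (70.9) and the resident memory-like cluster 7 (57.6) followed, with overlapping intervals that rested on 2 to 7 Ly49+ cells each. The other clusters, 1, 4 and 2, had 8.95, 7.42 and 6.81 CPM, and the naive or central memory-like cluster 0 had 1.76 (0.480 to 4.51).

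In the virgin library cluster 3 was again high, at 380 (355 to 407) CPM. It was followed by cluster 5 at 169 (147 to 193), cluster 9 at 146 (92.3 to 218), cluster 7 at 114 (89.5 to 144) and cluster 8 at 81.7 (71.7 to 92.7), where the interval of each of the last 4 overlaps the next. Clusters 10, 1, 2 and 0 lay at 15.5, 10.7, 6.64 and 1.37 CPM, and cluster 4 had no Ly49 UMI in 24 cells. Of the 231 virgin Ly49+ cells, 109 (47.2%) lay in cluster 3 and 100 (43.3%) in clusters 5, 7 and 8, which held 15 (2.75%) of the parous ones. The share of Ly49+ cells within clusters 5, 7 and 8 was 22.6% (18.8 to 26.8) in virgin and 5.02% (2.83 to 8.14) in parous cells, all UMIs counted, where virgin cells were the deeper (medians of 5632 and 3056 UMIs in cluster 5). At 1400 UMIs the gap was smaller, with means over the 20 other draws of 13.5% against 5.28% in cluster 5, 9.85% against 3.25% in cluster 7 and 7.90% against 2.61% in cluster 8.

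Ikzf2 followed the Ly49 sum in cluster 6 at 482 (443 to 523) CPM, cluster 11 at 318 (248 to 402) and cluster 3 at 211 (193 to 231) of the parous library. Cluster 4, led by Adgrg1, Pdcd1 and Car2, came out apart: Ikzf2 was at 45.1 (36.0 to 55.7) CPM and in 11.6% of its 498 parous cells, where 5 of the 498 had a Ly49 UMI. In the virgin library Ikzf2 was at 204 (186 to 224) CPM in cluster 3, and at 9.93 (5.29 to 17.0) CPM in cluster 5 and 9.38 (3.44 to 20.4) in cluster 7, where Ly49 UMIs were frequent. In naive-like cells, a state not known for either, 0.823% of 486 parous and 0.305% of 984 virgin cells had a Ly49 UMI and 5.35% and 5.59% an Ikzf2 UMI, at medians of 4535.5 and 7394.5 UMIs per cell. A share near these was read as background.

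**Figure D2:**
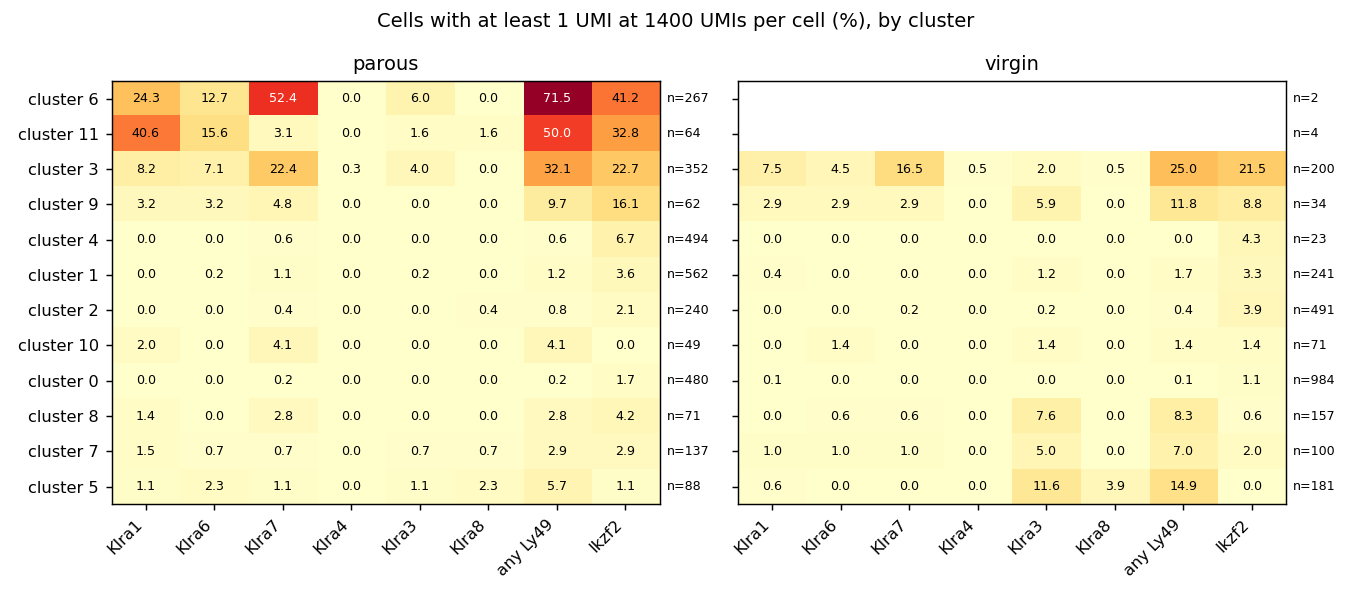
Share of cells with at least 1 UMI of each gene at 1400 UMIs per cell (%, printed in each cell and shown by colour), by cluster (rows, with the number of cells beside them) and library (panels); clusters with under 20 cells are blank. Cluster 3 is filled alike in both libraries, clusters 6 and 11 in the parous library, and Klra3 in clusters 5, 7 and 8 of the virgin library.

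Within cluster 3, which both libraries filled, the members other than Klra1 and Klra3 had intervals that reach equality. Klra7 was at 223.7 parous and 208.9 virgin CPM, a log2 ratio of 0.10 (-0.09 to 0.29), and Ikzf2 was at 211 and 204 CPM, a log2 ratio of 0.05 (-0.14 to 0.24). Klra6 was at 53.5 and 43.6 CPM, a log2 ratio of 0.29 (-0.11 to 0.70). For Klra1, at 76.6 and 95.2 CPM, the ratio was -0.31 (-0.61 to -0.01), and for Klra3, at 33.9 and 22.7 CPM, it was 0.57 (0.04 to 1.12), so that both pointed away from their direction in all cells. With all UMIs, 54.8% (49.5 to 60.1) of parous and 54.5% (47.3 to 61.5) of virgin cluster 3 cells were Ly49+, at medians of 6102.5 and 9690.5 UMIs per cell. At 1400 UMIs the shares were 32.1% and 25.0%, where other draws gave 29.0% to 36.6% and 25.5% to 33.0%.

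The clusters differed in which Ly49 genes they carried. In cluster 6 Klra7 stood at 814 (763 to 867) CPM, found in 65.7% of cells, while cluster 11 had 50.0 (25.0 to 89.5) CPM, found in 3 of 65 cells. Klra1 had 272 (243 to 303) CPM in cluster 6 and 637 (536 to 751) in cluster 11, where it was found in 34 of 65 cells. Klra6 did not separate the 2 clusters, at 114 (95.1 to 135) and 123 (80.9 to 179) CPM. Klra3 was at 57.2 (44.4 to 72.7) and 9.10 (1.10 to 32.9) CPM.

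Klra3 carried most of the virgin signal outside cluster 3. It was found in 40 of 183 virgin cells of the effector-like cluster 5 (21.9%), 32 of 158 of the cycling-like cluster 8 (20.3%) and 12 of 101 of the resident memory-like cluster 7 (11.9%). In the parous library it was found in 1 of 90 cells of cluster 5, 2 of 138 of cluster 7 and 0 of 71 of cluster 8, which by the limit of 3 counts allows a share of cells with a UMI of up to 4.23%. At 1400 UMIs the virgin shares were 11.6%, 7.64% and 5.00%, in the same order, and other draws gave 6.08% to 14.4%, 5.73% to 9.55% and 5.00% to 10.0%. Klra8, the activating receptor gene, was found in 18 of 183 virgin cells of cluster 5 (9.84%) and in 1 of 158 of cluster 8. Klra7 was found in 1 of 183, 2 of 158 and 2 of 101 virgin cells of clusters 5, 8 and 7, so these clusters had Klra3 without the gene most often found in cluster 3.

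Ly49 genes and Ikzf2 were found in the same cells more often than the product of their shares gives. At 1400 UMIs, 133 of the 368 parous Ly49+ cells had an Ikzf2 UMI (36.1%, 31.2 to 41.3), and 6.49% (5.55 to 7.52) of the Ly49- cells did, so that the count with both was 3.51 times the product of the shares. In virgin cells 30 of 110 Ly49+ cells had one (27.3%, 19.2 to 36.6) against 2.52% (1.93 to 3.24) of Ly49- cells, 7.54 times the product. Over the 20 other draws the share in Ly49+ cells ran from 35.3% to 43.4% in the parous and from 18.9% to 29.2% in the virgin library, so the libraries' ranges do not overlap while their intervals do. The ratio to the product was outside the range of the other draws in each library, which gave 3.66 to 4.20 in parous and 5.40 to 7.42 in virgin cells. With all UMIs the share with Ikzf2 was 62.8% (342 of 545) against 8.46% in parous and 42.9% (99 of 231) against 6.78% in virgin cells, or 3.42 and 4.24 times the product. The libraries lay closer in this ratio than at 1400 UMIs, where the means of the other draws were 3.96 and 6.37. The largest value the ratio can take falls as shares rise with depth.

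In the virgin library Helios went with some receptor genes and not with others. With all UMIs, Ikzf2 was found in 87.3% (48 of 55) of virgin cells with Klra1, 79.6% (43 of 54) with Klra6, 81.4% (79 of 97) with Klra7 and 7 of 10 with Klra4. Among virgin cells with Klra3 it was found in 11% (12 of 109), against 10.1% of cells without Klra3, and in 0 of 26 with Klra8. In the parous library the share was 69.8% (155 of 222) with Klra1, 68.5% (124 of 181) with Klra6, 68.5% (252 of 368) with Klra7 and 60.0% (51 of 85) with Klra3, and 1 of 8 with Klra8. Parous and virgin cells with Klra3 thus stood far apart, at 60.0% (48.8 to 70.5) and 11% (5.82 to 18.4). Most of these parous cells (77 of 85) lay in clusters 3, 6 and 11 and most virgin ones (84 of 109) in clusters 5, 7 and 8. At 1400 UMIs the virgin share was 2 of 49 with Klra3 and 20 of 38 with Klra7.

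**Figure D3:**
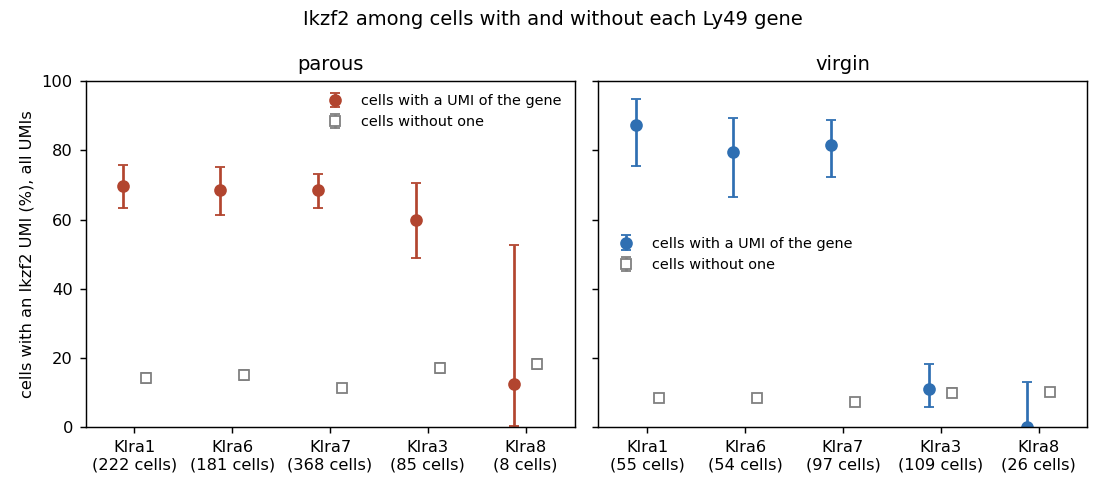
Share of cells with an Ikzf2 UMI (%) among cells with and without a UMI of each Ly49 gene, all UMIs counted, for the parous (left) and virgin (right) library, with exact 95% binomial intervals. Ikzf2 is frequent with Klra1, Klra6 and Klra7 in both libraries, and with Klra3 it is at 60.0% in parous and 11% in virgin cells.

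Since states differ in both genes, the pairing was also read within clusters, all UMIs counted. In cluster 3, Ikzf2 was found in 67.5% (60.4 to 74.1) of Ly49+ and 18.1% (12.5 to 25.0) of Ly49- parous cells, and in 74.3% (65.1 to 82.2) and 20.9% (13.1 to 30.7) of virgin cells, 1.49 times the product of the shares in each. In cluster 11 it was in 29 of 39 Ly49+ cells (74.4%) and 3 of 26 others (11.5%), 1.51 times. In cluster 6 it was in 71.2% (64.9 to 76.9) of 236 Ly49+ cells and 62.9% (44.9 to 78.5) of the 35 others, 1.02 times, with overlapping intervals. In the virgin cluster 5 it was in 3 of 51 Ly49+ cells and 5 of 132 others. At 1400 UMIs cluster 3 had 33.6% against 17.6% in parous and 46.0% against 13.3% in virgin cells, and cluster 6 had 39.8% against 44.7%. Means over the 20 other draws were 36.7% against 15.2%, 38.8% against 14.3% and 42.9% against 41.1%, in the same order. The direction in cluster 6 thus depended on the draw.

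The Ly49 genes themselves were found together. With all UMIs, 45.7% (249 of 545) of parous and 35.9% (83 of 231) of virgin Ly49+ cells had at least 2 of the 6 genes, and no cell had more than 4. At 1400 UMIs this held for 27.7% (102 of 368; other draws 23.8% to 31.6%) and 15.5% (17 of 110; other draws 13% to 22.6%). In parous cells Klra7 was found in 116 of the 181 cells with Klra6 (64.1%) and 9.0% of the rest, and in 124 of the 222 cells with Klra1 (55.9%) and 8.8% of the rest. Within cluster 3 the share with Klra7 was 72.5% (parous) and 84.1% (virgin) among cells with Klra6, and 31.9% and 31.4% among those without. Within cluster 6 the pair of Klra1 and Klra7 met in 68 cells, 0.996 times the product of their shares. In cluster 11, 18 of 34 cells with Klra1 had Klra6, and 1 of 31 without did.

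With all UMIs, cells with 2 of the genes had Ikzf2 more often than cells with 1, while at 1400 UMIs the parous shares were 36.8% with 1 and 31.5% with 2, whose intervals overlap. With all UMIs it was found in 8.46% of parous cells with no Ly49 gene, 52.7% with 1, 74.6% with 2, 71.4% with 3 and 8 of 8 with 4, while the median depth rose from 4036.5 UMIs per cell with none to 6556 with 4. In virgin cells it was in 6.78% with none, 26.4% with 1, 63.5% with 2, 24 of 25 with 3 and 3 of 6 with 4. Depth moved with this count, and its part was not tested. No doublet caller was run. A second Trbv gene (a T cell receptor beta chain V segment), which a pair of cells under 1 barcode could give, was found in 12.9% of parous cells with both Ly49 and Ikzf2 and 10.5% with neither, and in 35.4% and 21% of virgin cells, at medians of 4697, 4025, 8989 and 6817 UMIs. Without the cells that had 2 Trbv genes, the share of Ikzf2 in Ly49+ cells at 1400 UMIs was 40.1% in parous and 26.1% in virgin cells.

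The Ly49+ cells carried T cell transcripts. The CD3 gene Cd3e had a UMI in 96.5% (parous) and 97.8% (virgin) of Ly49+ cells, the gamma-delta receptor gene Trdc in 0.734% and 1.30%, the B cell gene Cd79a in none and the myeloid gene Lyz2 in 0.917% and none. Lyz2 was in 0.402% and 0.378% of cells with neither Ly49 nor Ikzf2. Cd79a had no UMI in any parous CD8 T cell, so its absence there does not set Ly49+ cells apart. The 5 B cell markers together were at 128 CPM in Ly49+ and 78.5 in Ly49- parous cells, and at 82.4 and 126 in virgin ones. In Ly49+ cells these UMIs were all of Cd79b and Ighm. A Trbv gene was assigned in 416 of 545 parous and 191 of 231 virgin Ly49+ cells, spread over 20 Trbv genes each. They stood apart in the CD8 beta chain, Cd8b1, which was found in 35.0% of parous Ly49+ cells against 91.1% of cells with neither Ly49 nor Ikzf2, and in 78.8% against 97.4% in the virgin library. The CD8 alpha chain, Cd8a, on which the cells had been sorted, was found in 69.0% against 78.5% and in 79.2% against 87.7%.

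The gap in Cd8b1 was also seen within clusters. In cluster 3 it was found in 43.8% (36.7 to 51.1) of Ly49+ and 80.0% (73.0 to 85.9) of Ly49- parous cells, and in 66.1% and 94.5% of virgin cells. In cluster 11 it was found in 4 of 39 Ly49+ cells (10.3%) and 22 of 26 others (84.6%), and in cluster 6 in 23.7% and 31.4%, whose intervals overlap. Cd8a also differed in the virgin cluster 3, at 61.5% (51.7 to 70.6) of Ly49+ and 87.9% (79.4 to 93.8) of Ly49- cells, while in the parous cluster 3 it was at 56.7% and 63.8%, with overlapping intervals. In the virgin cluster 5, where the Ly49 gene was mostly Klra3, Cd8b1 was in 96.1% of Ly49+ and 96.2% of Ly49- cells. Of these clusters, those where the share with Cd8b1 differed beyond the intervals were those where the share with Ikzf2 did. By level the parous cluster 6 did not follow this. Cd8b1 was there at 145 CPM in Ly49+ and 312 in Ly49- cells, on 149 and 44 UMIs, while Ikzf2 was at 481 and 489. By receptor gene, Cd8b1 was found in 95.4% and Cd8a in 95.4% of virgin cells with Klra3, and in 59.8% and 58.8% of virgin cells with Klra7.

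**Figure D4:**
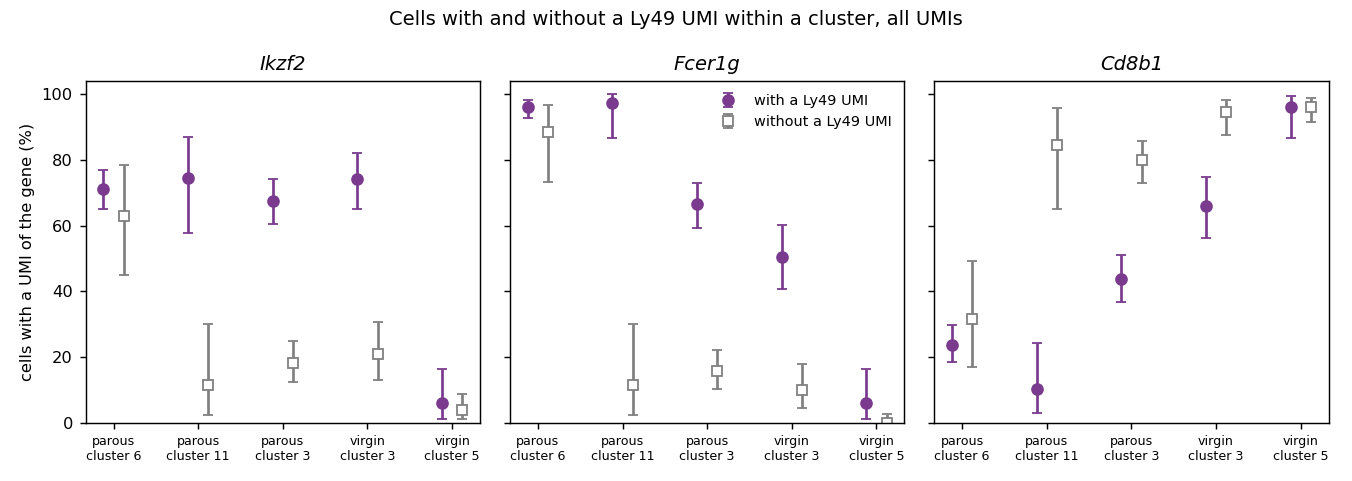
Share of cells (%) with a UMI of Ikzf2, Fcer1g and Cd8b1 among cells with and without a Ly49 UMI, within 5 combinations of library and cluster, all UMIs counted, with exact 95% binomial intervals. In cluster 3 of both libraries and in cluster 11 the Ly49+ cells have Ikzf2 and Fcer1g more often and Cd8b1 less often, while in cluster 6 and in the virgin cluster 5 the intervals overlap.

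Receptor segments set some of these cells apart. Of the 89 virgin cells with Klra3 and an assigned Trbv gene, 52 used Trbv31 (58.4%, 47.5 to 68.8), against 126 of 2059 virgin cells without Klra3 (6.12%, 5.12 to 7.24). The other way round, 29.2% of the 178 virgin Trbv31 cells had Klra3 and 1.88% of cells with another Trbv gene did. By state, 24 of 32 such cells used Trbv31 in cluster 5, 9 of 11 in cluster 7 and 19 of 27 in cluster 8, against 29 of 121, 5 of 75 and 37 of 118 cells without Klra3. In the parous library 4 of 123 Trbv31 cells had Klra3. Where an alpha segment could be assigned in virgin Trbv31 cells with Klra3, 16 of 23 used Trav3-1 and 7 used Trav10d, while the 65 without Klra3 spread over 24 Trav genes with 14 Trav10d and 12 Trav3-1 cells. Klra8 leaned the same way, with Trbv31 in 11 of 21 assigned virgin cells.

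The higher Klra3 level of the virgin library rested largely on these cells. Without the cells assigned Trbv31, an alternative chosen after the data were seen, the log2 ratio of parous to virgin was -0.28 for Klra3, against -1.14 with them, under the 1.5-fold mark. Whether cells that share segments descend from 1 cell was not tested, and the pool does not tell the mice apart.

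In the parous library Klra1 went with Trbv12-1. Of 161 assigned cells with Klra1, 38 used it (23.6%, 17.3 to 30.9), against 4.92% of 2075 without Klra1. In cluster 11 it was used by 21 of 22 cells with Klra1 and 1 of 19 without, and by 10 of 10 with Klra6. In cluster 6 it was used by 13 of 74 with Klra1 and 12 of 138 without, with overlapping intervals. Without Trbv12-1 cells the log2 ratio of Klra1 was 1.78, against 2.07 with them. An alpha segment could be assigned in 19 parous Trbv12-1 cells with Klra1. They spread over 11 Trav genes, of which the most frequent, Trav13-1, was in 5 cells. In the virgin library the 81 assigned cells with Klra7 spread over 19 Trbv genes, of which the most frequent was in 10 cells. In the parous cluster 6, Trbv15 was in 23 of 137 cells with Klra7 and 2 of 75 without.

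**Figure D5:**
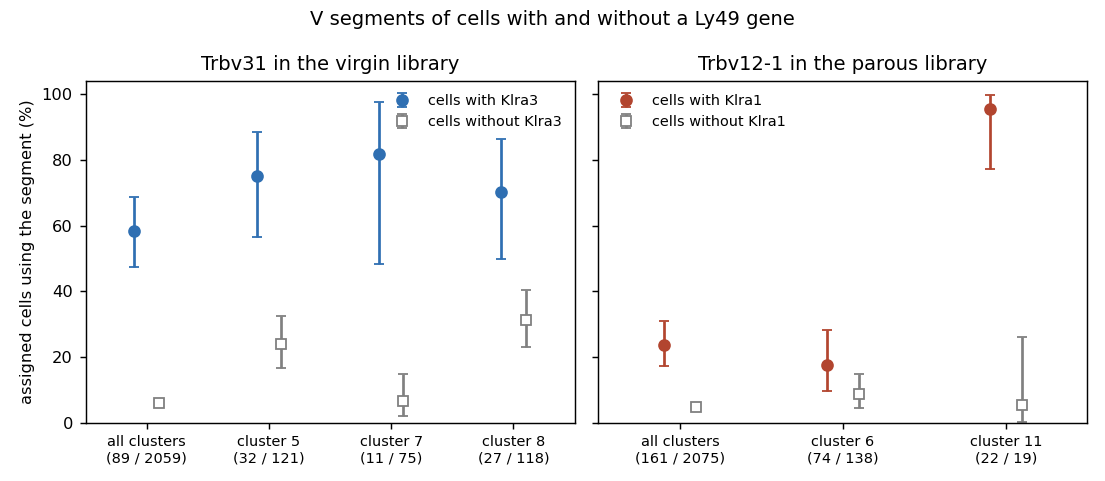
Share of assigned cells (%) that use Trbv31 among virgin cells with and without Klra3 (left), and Trbv12-1 among parous cells with and without Klra1 (right), over all clusters and by cluster, with exact 95% binomial intervals and the numbers of cells with and without the gene under each. Trbv31 is the more frequent with Klra3 in each cluster shown, and Trbv12-1 with Klra1 reaches 21 of 22 cells in cluster 11.

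What else the Ly49+ cells expressed was read from the ratio of CPM in Ly49+ to Ly49- cells in each library, all UMIs counted. With a ratio of at least 1.5-fold, 12.8% of genes were higher and 11.6% lower in parous Ly49+ cells, and 14.8% higher and 11.8% lower in virgin ones. A gene entered the comparison over both libraries where it reached 20 CPM and 30 UMIs in Ly49+ or Ly49- cells of each library, members and receptor segments left out. Of these 5283 genes, 101 (1.91%) were higher and 50 (0.946%) lower in both. This split partly follows the clusters, and ratios within cluster 3 and other clusters are given beside several of the genes.

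The 10 highest ratios were those of Fcer1g, Tyrobp, Lyn, Lat2, Klrb1c, Klrc2, Klre1, Klra9, Spry2 and Gzma. Fcer1g, the adaptor of activating receptors, was at 1684 CPM in Ly49+ and 53.2 in Ly49- parous cells, and at 136 and 3.47 in virgin cells. Within cluster 3 it was at 548 and 99.8, and at 254 and 34.6, and within the parous cluster 6 at 3312 and 2741. Tyrobp, the DAP12 adaptor, was at 810 and 30.7 CPM in parous and 71.2 and 5.21 in virgin cells, in cluster 3 at 260 and 67.9, and 95.5 and 18.8, and in the parous cluster 6 at 1757 and 1537. Cluster 6, which held 43.3% of the parous Ly49+ cells, thus had both adaptors with less than a 1.5-fold gap in CPM. By share of cells Tyrobp did differ there. It was in 80.1% (74.4 to 85.0) of Ly49+ and 54.3% (36.6 to 71.2) of the 35 Ly49- cells, at medians of 4125 and 3441 UMIs per cell. The kinase gene Lyn was at 119 and 10.2, and at 29.2 and 3.36, and in cluster 3 at 52.7 and 18.5, and 51.7 and 5.93. The NK receptor genes Klrb1c (133 and 4.44 parous, 41.9 and 3.18 virgin), Klrc2 (86.0 and 8.31, 46.8 and 5.50) and Klre1 (253 and 27.2, 187 and 24.5) were higher in the same way. In cluster 3 Klrb1c was at 64.5 and 18.5, and 71.8 and 11.9, Klrc2 at 59.7 and 22.6, and 91.1 and 14.8, and Klre1 at 200.5 and 48.3, and 187 and 33.6. In the virgin cluster 5 Klrb1c and Klrc2 pointed the other way, at 15.7 and 35.0, and 7.84 and 18.8. Klra9, a near copy of Klra3, was at 65.9 and 5.19, and at 42.3 and 3.76, and in the parous cluster 3 at 38.5 and 20.6, where shared reads cannot be told apart from expression. Spry2, an inhibitor of growth factor signalling, was at 64.0 and 10.3, and at 39.0 and 5.38. In cluster 3 it was at 59.0 and 15.4, and 66.6 and 9.88, and in the parous cluster 6 at 71.9 and 92.1, on 74 and 13 UMIs.

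Granzyme A, a protease of cytotoxic granules, went the other way within cluster 3. Gzma was at 5681 CPM in Ly49+ and 576 in Ly49- parous cells and at 2138 and 345 in virgin cells, but in cluster 3 it was the lower in Ly49+ cells, at 94.3 against 160 in parous and 9.64 against 60.2 in virgin cells. Among the lower genes were those of naive cells and the adipocyte gene Fabp4. Dapl1, a marker of naive and memory precursor T cells, was at 19.4 and 105 CPM in parous and 31.5 and 188 in virgin cells, and in cluster 3 at 25.9 and 107, and 39.4 and 125. Igfbp4, high in naive T cells, was at 4.47 and 44.4, and at 5.24 and 138, and in cluster 3 at 2.36 and 32.9, and 7.88 and 17.8. Fabp4 was at 2.23 and 68.1, and at 0.375 and 32.1, and it led the low-RNA cluster 9. Of its 721 UMIs in parous Ly49- cells, 715 were in that cluster, where Cd3e was found in 71.9% of cells.

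Gene lists were read by how many measured genes were 1.5-fold apart, where measured means at least 10 UMIs in the compared cells together, so a rare gene could pass through its high side alone. Over all clusters, 12.8% of all genes were higher and 11.6% lower in parous Ly49+ cells, and 14.8% and 11.8% in virgin ones. Of 12 other NK receptor genes, 12 were higher in Ly49+ cells of the parous and 12 in those of the virgin library, with median log2 ratios of 3.29 and 3.01, against 0.04 and 0.09 over all genes. In cluster 3, 8 of 9 measured parous and 8 of 10 measured virgin ones were higher, with medians of 1.38 and 2.16, where 14.3% and 15% of all genes were higher and 9.71% and 9.96% lower. In cluster 6, 8 of 12 were higher and 1 lower, with a median of 0.77, against 18.7% higher and 21.2% lower among all genes. In the virgin cluster 5, 2 of 8 were higher and 3 lower, with a median of -0.17, against 12.9% higher and 14.2% lower among all genes. Klrk1, the activating receptor NKG2D, was at 361 and 136 CPM in parous cluster 3 and at 309 and 200 in virgin cluster 3.

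Over all clusters more activating than inhibitory signalling genes were higher. Of the activating list, 5 of 8 measured genes were higher and none lower in parous and 4 of 7 in virgin Ly49+ cells, with medians of 3.97 and 1.77, and those higher in both libraries were Tyrobp, Fcer1g, Plcg2 and Lat2. In the parous cluster 6 none of 8 was higher or lower, with a median of 0.09, while in cluster 3, 3 of 6 parous and 4 of 6 virgin ones were higher. Of the inhibitory list, 1 of 6 was higher in parous and none in virgin cells, with medians of 0.05 and 0.16. That one was Ptpn6, the phosphatase SHP-1, at 143 and 70.0 CPM in parous and 114 and 98.3 in virgin cells, and at 81.0 and 94.6 in parous cluster 3. Of 9 genes of class I presentation, which make up or load the receptors' ligands, none was higher, and 1, the peptide transporter gene Tap1 (67.4 and 120 CPM), was lower in parous Ly49+ cells and none in virgin ones. H2-D1, a class I heavy chain gene, was at 2403 and 2328 CPM in virgin cells.

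Of the Ikaros family, Ikzf2 alone was higher over all clusters of each library. Ikzf2 was at 376 CPM in Ly49+ and 36.1 in Ly49- parous cells and at 171 and 17.7 in virgin cells, and in cluster 3 at 323 and 64.8, and 336 and 55.3, while in cluster 6 it was at 481 and 489. Of the 4 other Ikaros genes none was higher in either library, and Ikzf4 was lower in virgin cells, at 0.749 against 1.45 CPM. Within clusters Ikzf5 was higher in Ly49+ cells of the virgin cluster 3, with 14 and 7 UMIs, and of the parous cluster 6, with 13 and 0. Ikaros itself (Ikzf1) was at 125 and 177 CPM in parous and 239 and 267 in virgin cells. Of 14 genes linked to regulatory CD8 T cells, 3 were higher and 4 lower in each library, with medians of -0.03 and 0.02. Among all genes 12.8% were higher and 11.6% lower in parous Ly49+ cells, and 14.8% and 11.8% in virgin ones. Il2rb, the shared receptor chain for interleukins 2 and 15, was higher at 778 and 384, and at 570 and 290, and Ctla4 was lower at 36.8 and 142, and at 96.6 and 204.

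Naive and exhaustion genes were lower in part. Of 8 naive genes, 5 were lower and none higher in each library, and of 7 exhaustion genes 4 were lower in parous and 5 in virgin cells. Among all genes 11.6% were lower in parous and 11.8% in virgin Ly49+ cells. Within the parous cluster 6, 7 of 8 naive genes counted as higher, against 18.7% of all genes. Its Ly49- class was only 35 cells, and Dapl1 passed there on 13 UMIs against 0. Of 11 genes of innate or unconventional T cells, which include Fcer1g and Tyrobp, 9 were higher and 1 lower in parous cells. Of 10 measured in virgin cells 8 were higher. Among all genes 12.8% were higher in parous and 14.8% in virgin Ly49+ cells. In the parous cluster 6 none of 9 was higher and 1 was lower, with a median of 0.23. Xcl1, a chemokine gene, was at 1756 and 420.3 CPM in parous and 416 and 168 in virgin cells. The residency integrin gene Itgae was higher in parous Ly49+ cells, at 196 and 56.9 CPM, and lower in virgin ones, at 2.62 and 23. Eomes, a memory factor, was lower in parous Ly49+ cells, at 29.4 and 78.5 CPM, and under the 1.5-fold mark in virgin ones, at 73.4 and 62.0. In cluster 3 it was under that mark in both libraries, at 38.5 and 43.2 in parous and 78.8 and 69.1 in virgin cells. The parous cluster 6 had 16.5 and 21.2 CPM, on 17 and 3 UMIs.

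Between the libraries the same lists were read over all CD8 T cells. Among all 13917 genes measured, 8.61% were at least 1.5-fold higher and 17.4% as far lower in parous cells. Of the activating signalling genes 6 of 9 were at least 1.5-fold higher in parous cells and none lower, with a median log2 ratio of 1.38, against -0.15 over all genes. Of the other NK receptor genes 8 of 12 were higher and 1, Klrb1f, lower, at 5.87 against 19.5 CPM. None of the 6 inhibitory signalling genes passed in either direction. Myeloid markers moved too: all 6 had UMIs in both libraries, 5 of 5 measured were higher in parous cells, and their sum was at 20.3 CPM in parous and 8.87 in virgin cells. Within the parous library that sum was at 22.3 CPM in Ly49+ and 19.8 in Ly49- cells, and within the virgin library at 6.37 and 9.26, with Lyz2, Apoe and C1qa at 0 in virgin Ly49+ cells. Their part in these values was not tested.

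Across 21 sums of cluster and library with at least 30 cells, the genes whose levels were most like the Ly49 sum were Fcer1g (Pearson r of 0.87), Lat2 (0.82), Klrb1c (0.80), Klrc2 (0.79), Tyrobp (0.79), Agtrap (0.77), Lyn (0.77) and Arap3 (0.77), out of 8286 genes on the log2(CPM + 10) scale. For Ikzf2 they were Fcer1g (0.87), Clnk (0.86), Spry2 (0.85), Lyn (0.84), Fndc3b (0.83), Arap3 (0.82), Aoah (0.81) and Klrc2 (0.81). The level of Ikzf2 followed that of Klra6 (0.87), Klra1 (0.79) and Klra7 (0.77), and hardly that of Klra3 (0.20) or Klra8 (-0.17). The sums share libraries and depth and are not independent, so these values describe the pattern and carry no test.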

How the data were processed

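Single-cell gene expression of CD8 T cells was measured in 2 libraries, 1 parous and 1 virgin. The authors deposited UMI counts that are not normalized, by gene and barcode. The submitters' processing notes name Cell Ranger 7.0.0, mm10, R 4.4.2 and Seurat; cell-calling settings are not given in the sources used here.

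Cells with at least 500 genes, 1000 UMIs and under 10% mitochondrial UMIs were kept. For clustering, virgin UMIs were thinned to 58.7% to match median depth; receptor segments, immunoglobulin, ribosomal and mitochondrial genes, all Ly49 genes and Ikzf2 were left out, and 2000 variable genes, 30 components, 15 neighbours and Leiden resolution 0.8 were used (scanpy 1.11.5, leidenalg 0.10.2). A name needed 3 markers 2-fold up in at least 10% of cells, with more of its own than of other markers among the 10 leading genes, thresholds set after the data were seen. Doublets were not removed. Log2 ratios of summed UMIs had 0.5 UMI added. Trbv genes were assigned with at least 2 UMIs and 66.7% of a cell's Trbv UMIs. Gene positions came from GENCODE on GRCm38, the assembly mm10 names. Ratios of summed UMIs and their intervals were tested on simulated Poisson counts. These lack the clumping of UMIs in few cells, so the test does not show how the intervals hold on real counts. Python 3.11.15, numpy 2.4.6, scipy 1.17.1, pandas 2.3.3 and matplotlib 3.10.9 were used.

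The members, gene lists and tests were chosen with earlier results of these data known. Named were all members, the 10 highest and 10 lowest Ly49+ to Ly49- ratios over both libraries, up to 5 genes per list with most UMIs, Tyrobp, Ptpn6, Eomes, Il2rb, Cd8b1 and Ikzf1, and the 8 genes most like the Ly49 sum and Ikzf2; Plcg2, Tap1, Trdc, Itgae and Klrb1f were named after their values were seen. Alternatives covered scaling, depth, filters, clustering and cells compared.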

Additional observations from a re-analysis of the deposited data

How the results depend on the processing

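Of 308 values under alternatives, 222 were classed as unchanged and 86 as moved. Ratios and shares were judged by their counting interval, which numbers of genes do not have. Of the 108 alternatives for headline values, 36 moved. No log2 ratio of parous to virgin changed sign, and shares and numbers of genes cannot do so. Log2 ratios for Ikzf2 and the Ly49 sum were 1.59 and 1.63 with median-of-ratios scaling, 1.60 and 1.78 with each cell weighted equally, and 0.82 and 0.57 without clusters 4, 6 and 11, each mostly of 1 library. The Ly49 sum was at 1.76 without Trbv31 cells and 1.36 without Trbv12-1 cells, both alternatives added after the data were seen.

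Shares moved with depth, by construction. In the order parous, virgin, all UMIs gave 18.4% and 10.1% for Ikzf2, 18.2% and 9.23% for any Ly49, 62.8% and 42.9% for Ikzf2 in Ly49+ cells, and 45.7% and 35.9% for at least 2 Ly49 genes. Thinning to 2500 UMIs gave 14.6% and 5.53%, 15.3% and 6.44%, 54.5% (parous), and 41.2% and 25.6%. Thinning to 1000 UMIs gave 8.46% for Ikzf2 and 11.1% for any Ly49 in parous cells. At least 2 UMIs, unthinned, gave 69.6% and 45.9% for Ikzf2 in Ly49+ cells, and 6.00% for Ikzf2 and 7.23% for any Ly49 in virgin cells.

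The parous shares without the clusters mostly of 1 library were 5.63% for Ikzf2, 6.61% for any Ly49 and 23% for Ikzf2 in Ly49+ cells. In virgin cells the last was 16.1% with the looser cell filter and 18.2% without the low-RNA cluster 9, each thinned anew, against 18.9% to 29.2% over 20 draws added after the data were seen; the cause was not tested. With Ly49 genes and Ikzf2 among the clustering genes, 33.5% of virgin cluster 3 cells were Ly49+, against 25%. Trbv31 was in 78.5% of virgin Klra3 cells where 1 UMI of a single Trbv gene sufficed. Genes higher and lower in Ly49+ cells of both libraries numbered 113 and 58 for at least 2 Ly49 UMIs, 114 and 58 at 1400 UMIs, and 83 and 49 without the clusters mostly of 1 library, with 95, 79 and 65 of the 101 higher genes kept. No paired analysis was possible because each group was 1 library. Rare members (Klra4, Klra8) are limited by depth.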
